A study of Mus musculus with 8 samples.

Results

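The assays described here carry late numbers of the mouse miRNA catalogue, miR-676 to miR-721. They were chosen by name: all assays of that number range, of any arm, were taken except star strands and miR-679, miR-702 and miR-708. This gave 38 of the 517 mouse miRNA assays of the study, 9 on panel 1 and 29 on panel 2 of a real-time PCR array. The tissue came from female mice of the apoe-/- genotype, in which the loss of apolipoprotein E leads to atherosclerosis. All mice, aged 6 to 8 weeks per the labels, received a high fat diet for 3 months, so that both groups share the genotype and the diet. Early plaque of the aortic root (plaque 1 to 4) was compared with arterial tissue of normal appearance (undiseased artery 1 to 4), both cut from sections by laser capture microdissection. The labels call the 4 samples of each group biological replicates, and the study design gives 3 to 4 mice. Neither says whether plaque and undiseased tissue were cut from the same mice. Because the tissue labels differ (aortic root and artery), the effect of the site cannot be told apart from that of plaque.

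MicroRNAs are short RNAs cut from hairpin precursors. Loaded into an Argonaute protein, they repress messenger RNAs that pair with their seed, here bases 2 to 8. Many catalogue entries of this number range came from early sequencing of small RNAs and were later doubted, because their reads could also be fragments of other RNAs. miR-720 is the best known case: in human cells its sequence was traced to a piece of a threonine tRNA. A PCR assay reports any RNA whose end it primes, whether a miRNA or a fragment, and does not tell them apart.

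RefSeq's miRNA table (build GRCm38.p6) listed a single mature sequence for 26 of the 38 names and both arms for another 4, whose assay names do not give the arm. No sequence is shown for miR-684, miR-685, miR-694, miR-696, miR-699, miR-709, miR-715 and miR-720. The 26 sequences run from 19 to 23 bases, with 36.4% to 81.0% G and C, and have 26 different seeds, so none of them share one. The 8 that belong to assays whose levels could be compared between the groups are shown 5′ to 3′, with the seed in capitals.
miR-692: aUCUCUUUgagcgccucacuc
miR-680: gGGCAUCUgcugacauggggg
miR-678: gUCUCGGUgcaaggacuggagg
miR-704: aGACAUGUgcucugcuccuag
miR-690: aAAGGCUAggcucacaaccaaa
miR-706: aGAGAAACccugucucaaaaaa
miR-682: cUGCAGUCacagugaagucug
miR-721: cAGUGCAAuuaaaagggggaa

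Some of these sequences are listed at more than 1 place or within other genes. miR-692 has 3 loci. The locus chr13:74407121-74407141 (+) lies in Ftl1-ps1 and chr4:125504805-125504825 (+) lies in Ftl2-ps, both pseudogenes of the iron storage protein ferritin light chain. The locus on chromosome 4 is also within the span of Grik3. The other is chr17:6895259-6895279 (-). miR-680 also has 3 loci, chr6:129691541-129691561 (+), chr12:35194849-35194869 (-) and chrX:144297790-144297810 (+), none within another listed gene. miR-682 (chr13:75645119-75645139, +) lies in the pseudogene Gm4149. The other 5 lie within spans of protein-coding genes: miR-678 in Prmt2 (chr10:76207333-76207354, -), miR-704 in Pdia4 (chr6:47803590-47803610, -), miR-690 in Fgf12 (chr16:28599940-28599961, -), miR-706 in Wnk1 (chr6:120034290-120034311, -) and miR-721 in Cux1 (chr5:136375777-136375797, -). The gene table gives spans only, so exon or intron was not assigned and gene strands were not compared.

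Each value was a raw threshold cycle (Ct), the PCR cycle whose fluorescence passes a threshold. Less RNA gives a higher Ct, and 40 stands for no amplification. An assay counted as detected at a Ct under 35. Amplification came later in plaque: 124 miRNAs were detected in each of the 8 samples, and their mean Ct was 27.1, 28.8, 29.9 and 26.3 in plaque 1 to 4 and 25.0, 25.0, 24.7 and 26.6 in undiseased artery 1 to 4. On average plaque was at 28.0 ± 1.65 and undiseased artery at 25.3 ± 0.885 (SD, n = 4 each), so that plaque came 2.70 cycles later. This mean was subtracted from each sample, and the negative of the result is called the level, on a log2 scale. Fewer cells and less RNA per cell cannot be told apart in such samples, and RNA quality was not measured. The smooth muscle miRNA miR-145 was detected in all 8 samples, at a Ct of 22.1 to 25.9 in plaque and 14.7 to 17.3 in undiseased artery. The leukocyte miRNAs miR-155 and miR-142-3p did not move together. miR-155 was at 26.2 to 31.96 in plaque and 29.2 to 30.1 in undiseased artery, and its log2 fold change relative to the mean was 2.79 (limma adjusted p = 0.0117). miR-142-3p, at 29.2 to 33.99 in plaque and 26.3 to 28.8 in undiseased artery, was not called (-0.22, adjusted p = 0.878). The leukocyte miRNA miR-223 was not called either (0.50, 95% interval -7.93 to 8.93, limma adjusted p = 0.903). Its Ct was 10.3 in plaque 2 and 10.7 and 10.6 in undiseased artery 2 and 3. It was 37.0 in plaque 3 and 20.8 to 23.3 in the other samples, so this assay cannot show whether miR-223 changed. Muscle miRNAs were present in both tissues: miR-133a was at 20.3 to 31.0 in plaque and 21.1 to 23.8 in undiseased artery. miR-1 was detected in 3 plaque samples (28.2 to 29.97) and 4 undiseased ones (26.8 to 28.4), and neither was called. The heart muscle miRNA miR-208 was detected in plaque 1 (31.4) and plaque 3 (34.0) alone. The part of cell composition in the differences below was not tested.

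The late-numbered assays were mostly either measured everywhere or silent. Of the 38, 13 were detected in all 8 samples, 8 in some and 17 in none. Among the 479 other miRNA assays 23.2% were detected in all samples and 34.0% in none, against 34.2% and 44.7% of the 38. Of the 52 other late-numbered assays (miR-647 to miR-675 or above miR-721), 10 were detected in all samples (19.2%), 12 in some and 30 in none (57.7%). The share detected in none thus lay above that of the 479 in both lists. The share detected in all samples lay above it for the 38 and below it for the 52. The 17 never detected were miR-681, miR-683, miR-686, miR-688, miR-691, miR-693-3p, miR-693-5p, miR-695, miR-697, miR-698, miR-707, miR-710, miR-711, miR-713, miR-717, miR-718 and miR-719.

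Per sample, 16, 14, 14 and 17 of the 38 were detected in plaque 1 to 4, and 18, 17, 19 and 16 in undiseased artery 1 to 4. This made 15.25 ± 1.5 in plaque and 17.5 ± 1.29 in undiseased artery (SD, n = 4 each). The groups overlapped at 16 and 17. In plaque 3, the sample with the latest mean Ct, 36.8% of the 38 were still detected, compared with 28.0% of the 479 other assays and 27.5% of the 153 others of panel 2. In undiseased artery 1 the order was the other way round, with 47.4% of the 38, 56.4% of the 479 and 50.3% of the 153. Of the 52 other late-numbered assays, 10 were detected in plaque 3 and 14 in undiseased artery 1.

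**Figure D1:**
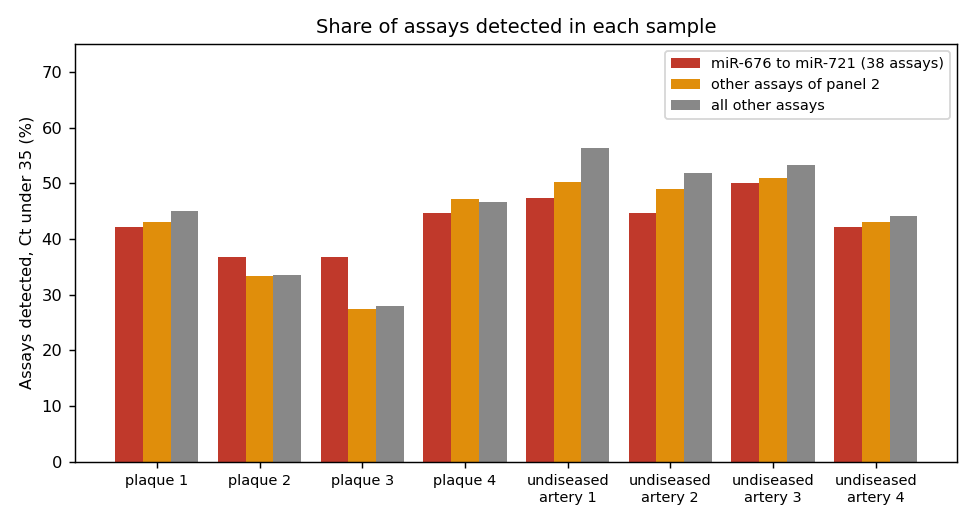
Share of assays with a Ct under 35 in each sample, in percent of the 38 late-numbered assays, of the 153 other assays of panel 2 and of all 479 other assays (bars, plaque samples left). The late-numbered assays ran from 36.8% in plaque 2 and 3 to 50.0% in undiseased artery 3. This was a narrower span than that of the 479 other assays, which ran from 28.0% to 56.4%. The 52 other late-numbered assays, not drawn, ran from 10 detected in plaque 3 to 17 in plaque 4. A narrow span was thus not particular to the 38.

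Levels were compared between the groups for 172 miRNAs, those that both groups detected in 3 or more samples, in 1 limma fit with Benjamini-Hochberg adjustment over the 172. Of these, 14 were late-numbered. In this fit 4 of the 14 were higher in plaque (miR-692, miR-715, miR-680 and miR-720), 0 were lower and 10 did not pass an adjusted p of 0.05. Of all 172, 15.7% were called higher and 18.6% lower. The calls were spread unevenly over the panels: 31.7% of the 63 tested miRNAs of panel 2 were called higher and 3.17% lower, and 6.42% of the 109 of panel 1 were called higher. On panel 2, 3 of the 11 late-numbered miRNAs tested were called higher (27.3%), which is near that panel's own share. On panel 1, 1 of 3 was called. The 14 are those abundant enough in both groups to be compared, and counts over them do not speak for all 38.

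**Figure D2:**
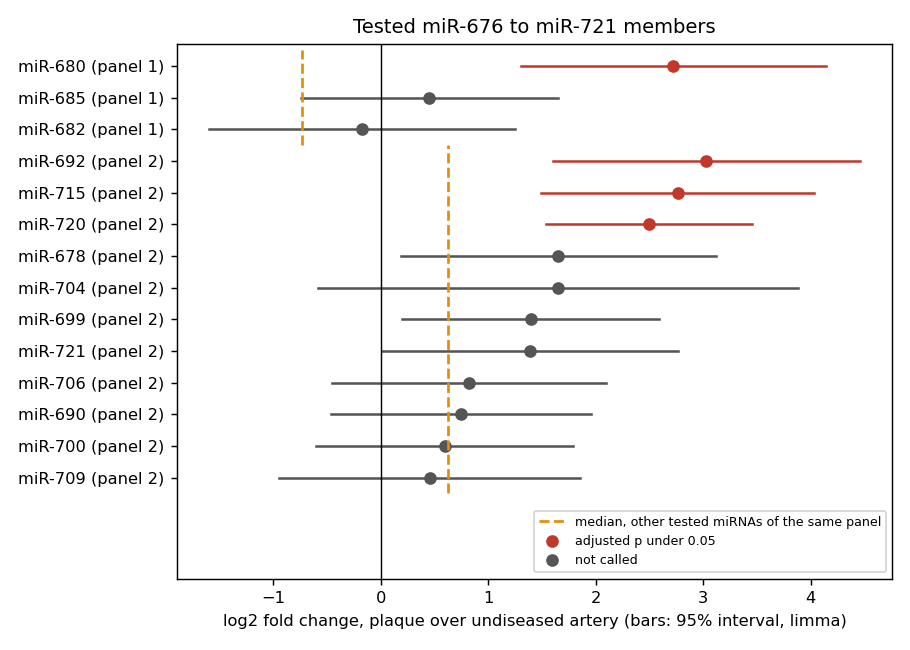
log2 fold change of plaque over undiseased artery for the 14 tested late-numbered miRNAs (points, with 95% intervals from limma, red where the adjusted p was under 0.05). Dashed lines are the medians of the other tested miRNAs of the same panel, -0.73 on panel 1 and 0.62 on panel 2. miR-692, miR-715, miR-680 and miR-720 stand to the right, with intervals that start above 1.3.

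miR-720 was among the earliest amplifying of all 517 miRNA assays. Its raw Ct was 14.7, 16.9, 17.5 and 13.9 in plaque 1 to 4 and 15.4, 15.3, 15.3 and 16.1 in undiseased artery 1 to 4. It had the lowest Ct of all miRNA assays in plaque 1, 3 and 4, and ranked 2 in plaque 2 and 2 or 3 in undiseased artery. In plaque 2 and undiseased artery 2 and 3, miR-223 came before it, at 10.3, 10.7 and 10.6, but was at 20.8 or later in the other samples. This order depends on each assay's efficiency as well as on abundance. On raw Ct the groups overlapped and the means differed by 0.20 cycles, 15.8 ± 1.72 in plaque and 15.5 ± 0.399 in undiseased artery (SD, n = 4 each). Relative to the mean of the sample, the level of miR-720 was 12.45, 11.91, 12.44 and 12.34 in plaque 1 to 4, against 9.58, 9.72, 9.36 and 10.51 in undiseased artery 1 to 4. All plaque samples lay above all undiseased ones. The log2 fold change was 2.49 (SE 0.438, limma adjusted p = 0.00369), or 5.63-fold higher in plaque under the assumption that each cycle doubles the product.

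Within plaque, the Ct of miR-720 moved with the mean Ct of the sample. It spanned 3.57 cycles over the 4 plaque samples, while the mean of the 124 miRNAs spanned 3.67, and the plaque SD of its level, 0.255, was larger than that of only 3 of the 124 miRNAs. This did not hold in undiseased artery, where its Ct spanned 0.858 cycles and the mean of the 124 spanned 1.96. There the SD of its level was larger than that of 75 of the 124. Of the 124, 82 are on panel 1 and 42 on panel 2, the panel of miR-720. Within plaque the mean Ct of the 42 had a narrower span, from 26.3 in plaque 4 to 29.0 in plaque 3. How closely miR-720 moved with it was not tested. The mean Ct of undiseased artery 4 (26.6) lay between those of plaque 4 (26.3) and plaque 1 (27.1), and its miR-720 level (10.51) was below both (12.34 and 12.45). Undiseased artery 4 also had the latest mean Ct of its group and the highest miR-720 level in it, against 9.36 to 9.72 in the others. This is 1 sample, and the part of the late mean Ct in the difference cannot be read from it.

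miR-692, the name with 2 loci in ferritin light chain pseudogenes, had the largest fold change of the 14 relative to the mean of the 124 miRNAs. With each panel centred on its own reference miR-680 was first, and with quantile normalization or mean Ct as a covariate miR-720 was. Its raw Ct was 25.6, 28.3, 27.03 and 25.8 in plaque 1 to 4 and 28.0, 26.5, 26.1 and 27.5 in undiseased artery 1 to 4. Raw values overlapped, with a mean difference of -0.33 cycles. The level averaged 1.36 ± 1.12 in plaque and -1.67 ± 0.893 in undiseased artery (SD, n = 4 each), with plaque values from 0.50 to 2.89 above undiseased values from -2.93 to -0.83. The log2 fold change was 3.03 (SE 0.651, limma adjusted p = 0.00881).

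miR-715 had nearly the same raw Ct in every sample. It was 25.5, 26.5, 26.4 and 25.0 in plaque 1 to 4 and 26.3, 25.2, 25.7 and 26.5 in undiseased artery 1 to 4, a span of 1.498 cycles within plaque where the mean of the 124 miRNAs spanned 3.67. Its level was highest, at 3.49, in plaque 3, which had the latest mean Ct. Levels in the other plaque samples were 1.27 to 2.35, and in undiseased artery -1.24 to 0.16, without overlap between the groups. The log2 fold change was 2.76 (SE 0.579, limma adjusted p = 0.00861).

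miR-680, the only called late-numbered miRNA of panel 1, had a raw Ct of 27.4, 30.0, 28.3 and 27.4 in plaque 1 to 4 and 27.2, 28.0, 28.0 and 30.0 in undiseased artery 1 to 4. The raw group means were 0.02 cycles apart. The level was -0.29, -1.15, 1.65 and -1.13 in plaque 1 to 4 and -2.21, -3.0, -3.29 and -3.31 in undiseased artery 1 to 4, so that the groups did not overlap. Its log2 fold change of 2.72 (SE 0.645, limma adjusted p = 0.0138) stood against a median of -0.73 over the 106 other tested miRNAs of its panel.

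The raw Ct of the 4 called miRNAs barely differed between the groups, by -0.33 to 0.20 cycles, while the mean of the 124 miRNAs came 2.70 cycles later in plaque. For an assay detected in all 8 samples, the log2 fold change is that shift minus the raw difference. The small raw differences therefore restate the fold changes of the 4 and are not a separate trait. Of all 172 tested miRNAs, 16 had a raw difference within 0.5 cycles of 0, these 4 among them. The control RNAs were later in plaque too, by 1.32 to 3.94 cycles on panel 1 and 0.58 to 3.08 cycles on panel 2. With the mean Ct of each sample as a covariate, the log2 fold changes were 2.23 for miR-720, 1.76 for miR-692, 1.70 for miR-680 and 1.20 for miR-715, with adjusted p values from 0.0535 to 0.233, so that none of the 4 were called. Of all 172, 7 were called higher in that fit, against 27 without the covariate, so that the loss of calls is not particular to the 4.

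**Figure D3:**
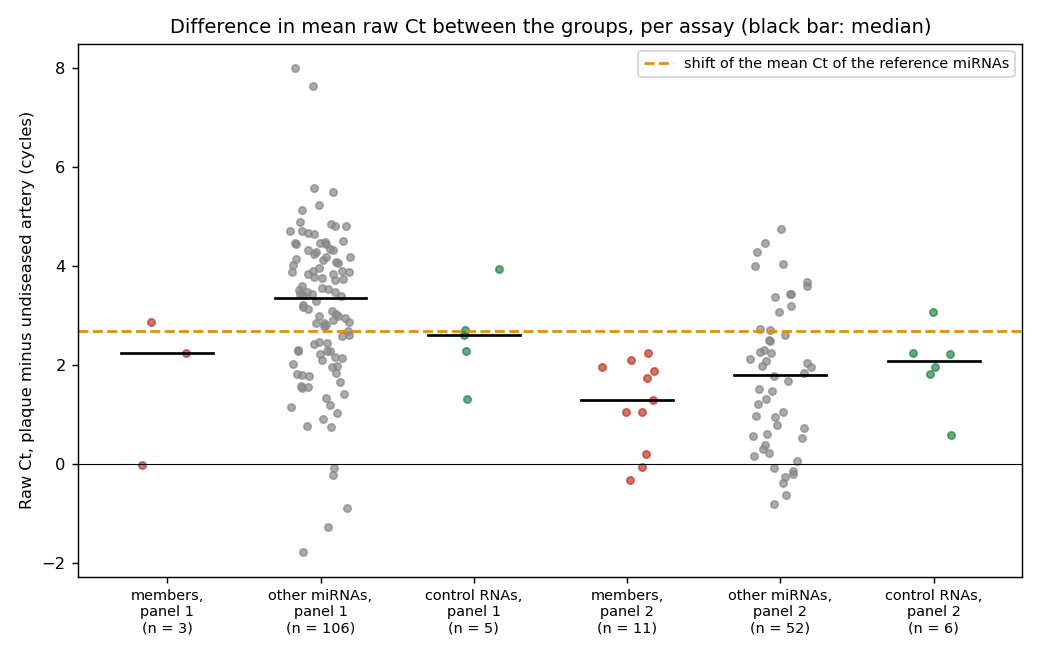
Difference in mean raw Ct between plaque and undiseased artery, in cycles, for each tested assay and control RNA by panel (points, with the median as a black bar). The dashed line is the 2.70 cycles of the 124 reference miRNAs. The 4 called late-numbered miRNAs lie at -0.33 to 0.20, and the other 10 between 1.05 and 2.87.

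The other early-amplifying late-numbered miRNAs were not called. miR-709, which in mouse cells has been described as a nuclear regulator of miR-15a/16-1 processing, had a raw Ct of 19.0, 18.7, 19.6 and 16.0 in plaque 1 to 4 and 16.3, 16.1, 16.0 and 16.1 in undiseased artery 1 to 4. Undiseased values had an SD of 0.134 cycles, and 3 of the 4 plaque values lay more than 2 cycles above them. The log2 fold change relative to the mean was 0.45 (95% interval -0.95 to 1.85, limma adjusted p = 0.584). The levels overlapped because plaque 1 (8.13) fell below, and undiseased artery 4 (10.60) above, all others of their groups.

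miR-690, which mouse macrophages have been reported to release in exosomes, had a raw Ct of 20.9, 22.0, 22.7 and 20.9 in plaque 1 to 4 and 20.2, 19.3, 19.0 and 20.2 in undiseased artery 1 to 4. All plaque values were later, yet by less than the mean of the 124 miRNAs, and the log2 fold change was 0.74 (95% interval -0.46 to 1.95, limma adjusted p = 0.316). For miR-699 the raw Ct was 24.6, 24.9, 25.7 and 23.1 in plaque 1 to 4 and 23.9, 22.8, 22.8 and 23.7 in undiseased artery 1 to 4. Its log2 fold change was 1.39 (95% interval 0.20 to 2.59, limma adjusted p = 0.0682), which misses the threshold. It passed without plaque 1 (1.69, adjusted p = 0.0471) and without undiseased artery 4 (1.70, adjusted p = 0.0473).

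miR-706 gave a Ct of 26.5, 26.3, 26.7 and 24.9 in plaque 1 to 4 and 24.0, 23.5, 23.6 and 25.7 in undiseased artery 1 to 4. On panel 1, miR-685 gave 25.0, 25.6, 29.0 and 24.3 in plaque 1 to 4 and 23.8, 23.1, 23.6 and 24.4 in undiseased artery 1 to 4. Both overlapped between the groups, and neither was called, with log2 fold changes of 0.82 for miR-706 and 0.45 for miR-685.

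The other 5 tested late-numbered miRNAs amplified at a Ct of 27.3 or later and were not called. miR-678 had a raw Ct of 29.1, 28.8, 29.2 and 28.2 in plaque 1 to 4 and 27.3, 28.0, 27.5 and 28.4 in undiseased artery 1 to 4, with a log2 fold change of 1.65 (95% interval 0.19 to 3.12, limma adjusted p = 0.0773). It was called without plaque 1 (2.04) and without plaque 4 (2.04). miR-704 had 28.5, 30.1, 30.7 and 31.7 in plaque 1 to 4 and 28.1, 30.6, 28.8 and 29.2 in undiseased artery 1 to 4. Its log2 fold change of 1.65 had the widest interval of the 14, -0.59 to 3.88. The level of plaque 4 (-5.48) was far below the other plaque samples (-1.36 to -0.74), and without it the change was 2.74 (adjusted p = 0.0172).

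miR-700 had a raw Ct of 31.0, 31.0, 31.9 and 28.1 in plaque 1 to 4 and 27.8, 27.9, 27.5 and 30.3 in undiseased artery 1 to 4, and a log2 fold change of 0.59. miR-682 had 30.0, 31.6, 34.0 and 31.4 in plaque 1 to 4 and 28.7, 28.8, 29.0 and 29.0 in undiseased artery 1 to 4. On raw Ct the groups of miR-682 did not overlap. Relative to the mean, the log2 fold change was -0.17 (limma adjusted p = 0.853), the only one of the 14 below 0.

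miR-721 belongs by its seed to the miR-130 and miR-301 family, a group studied together in the reprogramming of mouse fibroblasts. RefSeq lists 6 other mature miRNAs with its seed, among them miR-130a-3p and miR-301a-3p, which are shown with miR-721 for comparison, the seed in capitals.
miR-721: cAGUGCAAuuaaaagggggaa
miR-130a-3p: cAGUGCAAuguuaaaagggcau
miR-301a-3p: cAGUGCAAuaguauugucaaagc

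The raw Ct of miR-721 was 31.5, 32.1, 33.5 and 31.8 in plaque 1 to 4 and 30.2, 30.6 and 30.7 in undiseased artery 1 to 3, with no detection in undiseased artery 4. The fit left that sample out, and the log2 fold change was 1.39 (95% interval 0.01 to 2.76, limma adjusted p = 0.107). Without plaque 4 it was called (1.84). The assays named miR-130a and miR-301a, both on panel 1 and named without an arm, fell by 1.63 (SE 0.473, limma adjusted p = 0.0270) and 2.00 (SE 0.525, limma adjusted p = 0.0220) on the log2 scale. miR-130b, also of this seed and panel 1, was not called (0.29, limma adjusted p = 0.710), with plaque 3 not detected. miR-301b, counted in this family by its name alone here, was detected in 2 plaque samples (32.6 and 32.99) and 4 undiseased ones (28.8 to 30.2) and was not tested. The difference between miR-721 and these relatives was not tested, and they were read on different panels. After centring by panel, miR-130a (-1.08, limma adjusted p = 0.0935) and miR-301a (-1.55, limma adjusted p = 0.0575) were no longer called. The log2 fold change of miR-721 was then 0.21.

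**Figure D4:**
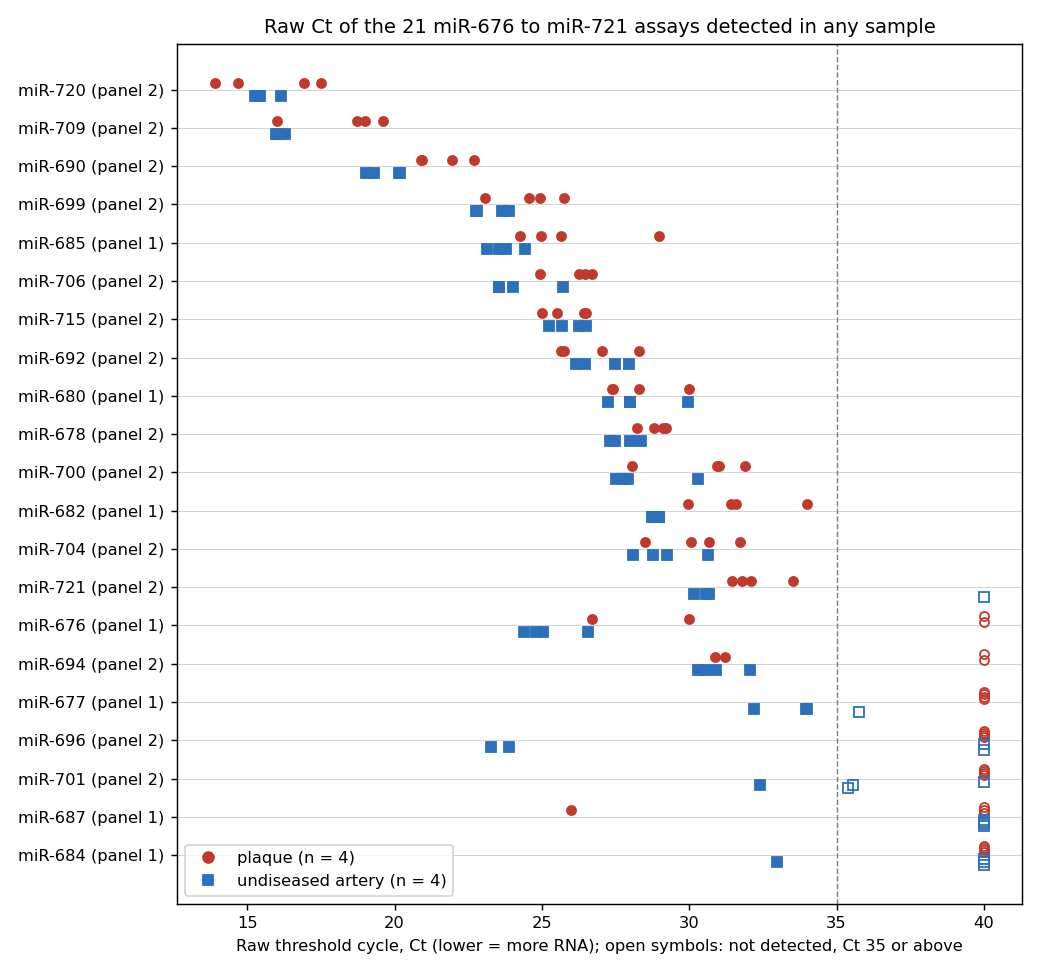
Raw Ct in every sample for the 21 late-numbered assays detected at least once (plaque circles above undiseased squares, n = 4 each, open symbols at a Ct of 35 or above). miR-720 and miR-709 amplified earliest, at Ct 13.9 to 19.6. The lower 7 assays were missing from 2 or more samples.

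A further 7 late-numbered miRNAs were detected in some samples but in too few for the comparison of levels. miR-676, whose hairpin lies within the span of Eda on the X chromosome (mature sequence cCGUCCUGagguuguugagcu, chrX:100381151-100381171, +, GRCm38.p6, seed in capitals), was detected in all undiseased samples, at a Ct of 25.0, 24.4, 24.8 and 26.5. In plaque it was detected in plaque 1 (30.0) and plaque 4 (26.7) alone. Its star strand, on panel 2, was detected in plaque 2 (34.5) alone, and at 31.6, 31.8, 30.1 and 32.7 in undiseased artery 1 to 4. The plaque samples did not match: plaque 2 missed miR-676, and plaque 1 and 4 missed the star strand. Fewer detections in plaque were also general. Of the miRNA assays outside the late-numbered list, a mean of 38.3% were detected in plaque samples and 51.4% in undiseased ones. miR-694 was detected in plaque 1 (31.2) and plaque 4 (30.9), and at 30.5, 30.9, 32.1 and 30.3 in undiseased artery 1 to 4. The plaque samples that missed miR-676 and miR-694, plaque 2 and 3, were those with the latest mean Ct.

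miR-677 was detected in 0 of 4 plaque samples and, late, in undiseased artery 1, 3 and 4 (34.0, 32.2 and 34.0). miR-696, which in mouse muscle responds to exercise, gave an early Ct in undiseased artery 2 (23.3) and 3 (23.9) and no amplification in the other 6 samples. miR-687, induced by hypoxia in mouse kidney, gave a Ct of 26.0 in plaque 4 alone. miR-684 (33.0, undiseased artery 1) and miR-701 (32.4, undiseased artery 3) were each detected once.

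Of these 7, 3 were detected in at least 3 undiseased samples and entered a comparison of detection by Fisher's exact test with 80 miRNAs. None passed, and none could: only a split of 0 against 4 samples reaches a p under 0.05 in this design. The exact p was 0.143 for miR-677 (0 of 4 plaque samples against 3 of 4 undiseased) and 0.429 for both miR-676 and miR-694 (2 of 4 against 4 of 4). Over the 80 miRNAs, 1 had an unadjusted Fisher's exact p under 0.05 and 0% passed after adjustment, the lowest adjusted p being 0.394.

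The 14 tested late-numbered miRNAs had a median log2 fold change of 1.39, and 13 lay above 0. The median over all 172 tested was -0.11. By panel, the 11 of panel 2 had a median of 1.39, against 0.62 for the 52 others of that panel, and the 3 of panel 1 had 0.45, against -0.73 for the 106 others. The 12 tested late-catalogue miRNAs outside the range, miR-647 to miR-675 or above miR-721, had 3 called higher (miR-673-5p at 2.63, miR-804 at 2.17 and miR-875-5p at 2.78 on the log2 scale, all of panel 2), 0 lower and a median of 1.15. The levels of plaque and undiseased samples did not overlap for 4 of the 14 late-numbered miRNAs, and for 32.6% of all 172.

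The number called differed with the choice of reference. With each panel centred on its own reference miRNAs, 4 were called higher, 10 lay above 0 and the median was 0.47, where 8.72% of all 172 were called higher. In that fit the log2 fold changes were 3.27 for miR-680 (adjusted p = 0.0124), 1.95 for miR-692 (adjusted p = 0.0330), 1.68 for miR-715 (adjusted p = 0.0259) and 1.42 for miR-720 (adjusted p = 0.0373). With quantile normalization 3 were called and miR-680 was not (2.00, adjusted p = 0.0571), where 11 of all 172 were called higher. With the control RNAs the 4 changes were 2.05 to 2.58, and with U6 alone 2.05 to 2.58, of which 0 were called (adjusted p from 0.195 to 0.478). The control RNAs spread widely in plaque, U6 with an SD of 2.78 cycles on panel 1 against 0.655 in undiseased artery.

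On raw Ct, 0 were called higher and 1, miR-682, lower (-2.87, adjusted p = 0.0257), while the 4 changes were -0.20 to 0.33. Of all 172, 0 were called higher and 81 lower on raw Ct, so that neither count is particular to the 14. With an exact permutation test per miRNA in place of limma, 4 of the 14 reached the smallest p that 4 against 4 samples allow, 0.0286, and none of these passed adjustment (adjusted p = 0.0964). Among all 172 tested miRNAs, 51 had an exact permutation p under 0.05 before adjustment, so that such a p is not particular to the 4. Leaving out any 1 of the 8 samples, miR-680, miR-692, miR-715 and miR-720 were called higher, with log2 fold changes of 2.09 to 3.03 for miR-680, 2.51 to 3.31 for miR-692, 2.32 to 3.06 for miR-715 and 2.35 to 2.73 for miR-720. They were also the 4 called when plaque 2 and 3 were left out, where 15 of all 172 were called higher.

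**Figure D5:**
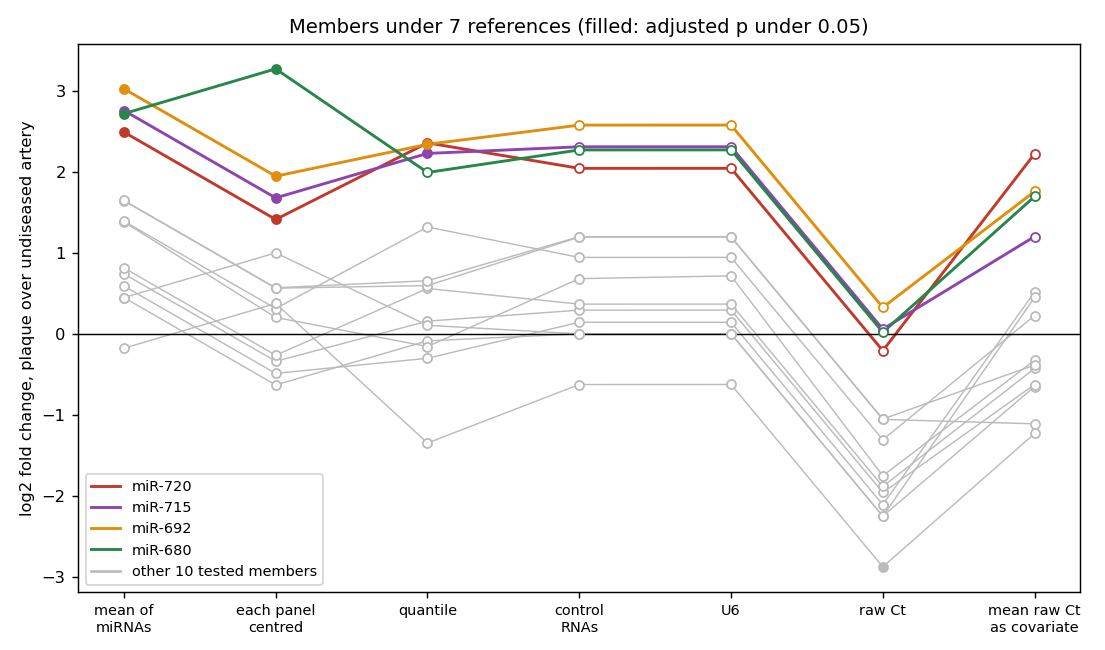
log2 fold change of plaque over undiseased artery for the 14 tested late-numbered miRNAs under 7 choices of reference (lines, points filled where the adjusted p was under 0.05). miR-720, miR-715, miR-692 and miR-680 stay above the other 10 throughout, and on raw Ct they lie at -0.20 to 0.33.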

How the data were processed

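The authors deposited raw threshold cycles (Ct) of 8 samples in 530 assay rows, and the values show no sign of normalisation or filtering. Per the labels, RNA was isolated with the RecoverAll kit from at least 40 sections per mouse and the probes carried FAM. No instrument or preamplification is named in the labels. Panels were told apart by the recurring control RNAs. The title of plaque 4 was used, although its description gives replicate number 3. With 3 to 4 mice in the study design, the labels do not settle that plaque 3 and plaque 4 came from separate mice. Detection meant a Ct under 35, and other values were left missing. Levels of the 8 samples were fitted in R 4.3.3 by limma 3.58.1, using lmFit and eBayes with a term for group alone and two-sided p-values. All 38 late-numbered miRNAs are accounted for; those tested, or detected in at least 3 samples of a group, are given with every value. The miRNAs and lists were chosen with earlier results of these data known. miR-130a, miR-130b, miR-301a and miR-301b were added after the seed match was seen. Same-numbered samples were checked for pairing. The steps were tested on simulated data. Alternatives were other cutoffs, references, filters, weights, tests and samples.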

Additional observations from a re-analysis of the deposited data

Results flagged for a closer look

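In each group of 4, the highest and lowest levels of the tested late-numbered miRNAs were compared with the gap to their nearest neighbour (Dixon's criterion at the 95% level), in 29 groups that include the numbers detected per sample. A sample stood apart in 4 of the 29, and chance flags about 1 group in 20. miR-709 stood apart in both groups: its level was 8.13 in plaque 1, against 10.12 to 10.31 in the other plaque samples, and 10.60 in undiseased artery 4, against 8.72 to 8.95 in the other undiseased samples. miR-704 had a level of -5.48 in plaque 4, against -1.36 to -0.74 in the others. miR-700 had a level of -3.87 in plaque 1, against -2.12 to -1.81 in the others. None of these 3 miRNAs was called.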

How the results depend on the processing

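The 4 late-numbered miRNAs called higher (miR-680, miR-692, miR-715 and miR-720) kept their direction under the alternatives run, except miR-720 on raw Ct (-0.20). The number called higher was 0 with control RNAs, U6, raw Ct, the exact permutation test or mean raw Ct as covariate, 3 with quantile normalization and 3 with no filter on detection (miR-680 lost its call, adjusted p = 0.0571 and 0.0518), 7 with array weights, and 4 to 7 with 1 sample left out (7 without plaque 4). The number called lower was 1 on raw Ct, where 81 of all 172 were called lower. Among all 172, 27 were called higher in the first fit, 37 with array weights, 36 without plaque 4 and 11 with quantile normalization. The count over all 172 was 7 with the covariate and 0 with control RNAs, U6, raw Ct or the exact permutation test. With no filter on detection 18 of 337 were called higher. All calls among the 172 (59) became 2 with control RNAs, 2 with U6, 35 with each panel centred, 13 with the covariate, 36 with plaque 2 and 3 left out and 19 to 79 with 1 sample left out (24, 19 and 20 without undiseased artery 1, 2 and 3). With no filter on detection there were 29 calls among 337 miRNAs tested. By the exact permutation test there were 0, with 51 at an unadjusted p under 0.05. The cause of these changes was not tested. The median log2 fold change of the 14 was 0.58 with quantile normalization, -1.52 on raw Ct, 0.47 with each panel centred, -0.045 with the covariate and 0.47 with plaque 2 and 3 left out, an alternative chosen after seeing the data, as was a reference without the late-numbered miRNAs. Scalings also moved the median of all tested miRNAs, to -1.02 with quantile normalization and -2.59 on raw Ct.

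Signs turned as follows. On raw Ct, log2 fold changes were -2.25 for miR-685, -1.05 for miR-678, -1.95 for miR-690, -1.30 for miR-699, -2.10 for miR-700, -1.05 for miR-704, -1.88 for miR-706, -2.25 for miR-709 and -1.75 for miR-721. With quantile normalization they were -0.30 for miR-700, -0.083 for miR-709 and -0.15 for miR-721. With each panel centred they were 0.38 for miR-682, -0.33 for miR-690, -0.48 for miR-700, -0.26 for miR-706 and -0.63 for miR-709. With the covariate they were -0.38 for miR-678, -0.62 for miR-690, -1.11 for miR-704, -0.42 for miR-706, -0.65 for miR-709 and -0.32 for miR-721. Array weights gave 0.61 for miR-682 and -0.063 for miR-700. With 1 sample left out, miR-682 ranged from -0.50 to 0.31 (0.31 without plaque 4 and 0.23 without undiseased artery 4). Without plaque 2 and 3, miR-706 was -0.13 and miR-709 -0.059.

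With the replicate number as a block, 4 late-numbered miRNAs were called higher, 49 of all miRNAs were called and the median of the 14 was 1.52. Same-numbered samples correlated at -0.245 to 0.191, and 1 of 4 plaque samples correlated best with its own number. These values give no sign of pairing and do not settle whether the tissues came from the same mice. At a detection cutoff of Ct 38, miR-677 was detected in 0 plaque and 4 undiseased samples (Fisher's exact p = 0.0286, adjusted p = 0.402). With 4 samples a group, no amplification at the late mean Ct of plaque does not show absence.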
